A study of Mus musculus with 17 samples.

Results

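The genes examined were 9 genes of the Sonic hedgehog pathway, chosen by symbol from the 26556 genes listed for each library: the ligand gene *Shh*, the receptor gene *Ptch1*, the co-receptor genes *Boc* and *Cdon*, the transducer gene *Smo*, the transcription factor genes *Gli1*, *Gli2*, and *Gli3*, and the inhibitor gene *Hhip*. All 9 were listed in every library and all 9 had enough counts to be tested, as did 17856 genes in all. RNA was measured in 17 libraries of GFP-labeled cells, purified as astrocytes at postnatal day 7 (P7). Of these, 4 came from the cortex, 5 from the dorsolateral geniculate nucleus (dLG), 4 from the ventral posteromedial nucleus (VPM), and 4 from the ventral medial geniculate nucleus (MGv), so that the thalamus had 13. Every group shared the strain (FVB), the *Gfap::GFP* transgene, the age, and the absence of any treatment, and tissue of 4 brains was pooled for each library. The transgene limits the purified population to cells in which the *Gfap* promoter was, or had recently been, active. No source used here states whether libraries with the same letter came from the same brains, so p-values measure the spread between these libraries.

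Hedgehog ligands bind the receptor Patched, with *Boc*, *Cdon*, and *Gas1* as co-receptors, and thereby release Smoothened from inhibition. Smoothened then acts through the primary cilium on the Gli factors, of which Gli2 is mainly an activator, Gli3 mainly a repressor in the absence of ligand, and Gli1 an activator that is itself a target. *Gli1*, *Ptch1*, and *Hhip* are transcribed in response to the signal, and *Gli1* is widely used as a readout of it. In the postnatal forebrain, neurons are a source of Shh and part of the astrocytes respond to it.

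The main difference lay between the VPM and the other groups. *Gli1* was 7.73-fold lower in the VPM than in the dLG, 12.6-fold lower than in the MGv, and 9.59-fold lower than in the cortex. *Ptch1* and *Gli3* were also called lower in the VPM than in both other nuclei. Against the dLG, neither call held in fits of a single library series (described below). *Shh* itself was not called in any comparison. "Called" means a Benjamini-Hochberg adjusted p under 0.1 in edgeR's quasi-likelihood test, adjusted over all 17856 genes. Levels are CPM, read counts relative to the library's total after scaling by the TMM method, and log2 fold changes (log2FC) are the first named group over the second.

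Total counts ranged from 18213687 to 50366363 per library, with the highest in cortex replicate a, and a level of 3 counts, taken as the floor, was 0.0596 to 0.165 CPM depending on the library, which allows for counting error alone. All 8 astrocyte marker genes were detected in every group, and their summed level was between 4408 and 13080 CPM, with the highest in MGv replicate c. The 7 oligodendrocyte lineage markers summed to between 6126 and 11120 CPM, the 10 neuronal markers to between 444 and 1629 CPM, and no gene of these lists was at 0 in every library of a group. By group median, the oligodendrocyte lineage sum lay above the astrocyte sum in the VPM (9401 against 6519 CPM) and the dLG (8011 against 6752). It did so in the MGv (7097 against 6457) but not in the cortex (7194 against 7778). In these bulk libraries, fewer cells of a type and less RNA per cell cannot be told apart. Library numbers in the labels fall into 3 series, of which the largest holds all 4 MGv libraries and 2 of each other group, another holds 2 libraries of each group but the MGv, and the remaining one holds dLG replicate c alone. In dLG replicate c 17749 genes had counts, against 21052 to 23365 in the other 16 libraries.

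**Figure D1:**
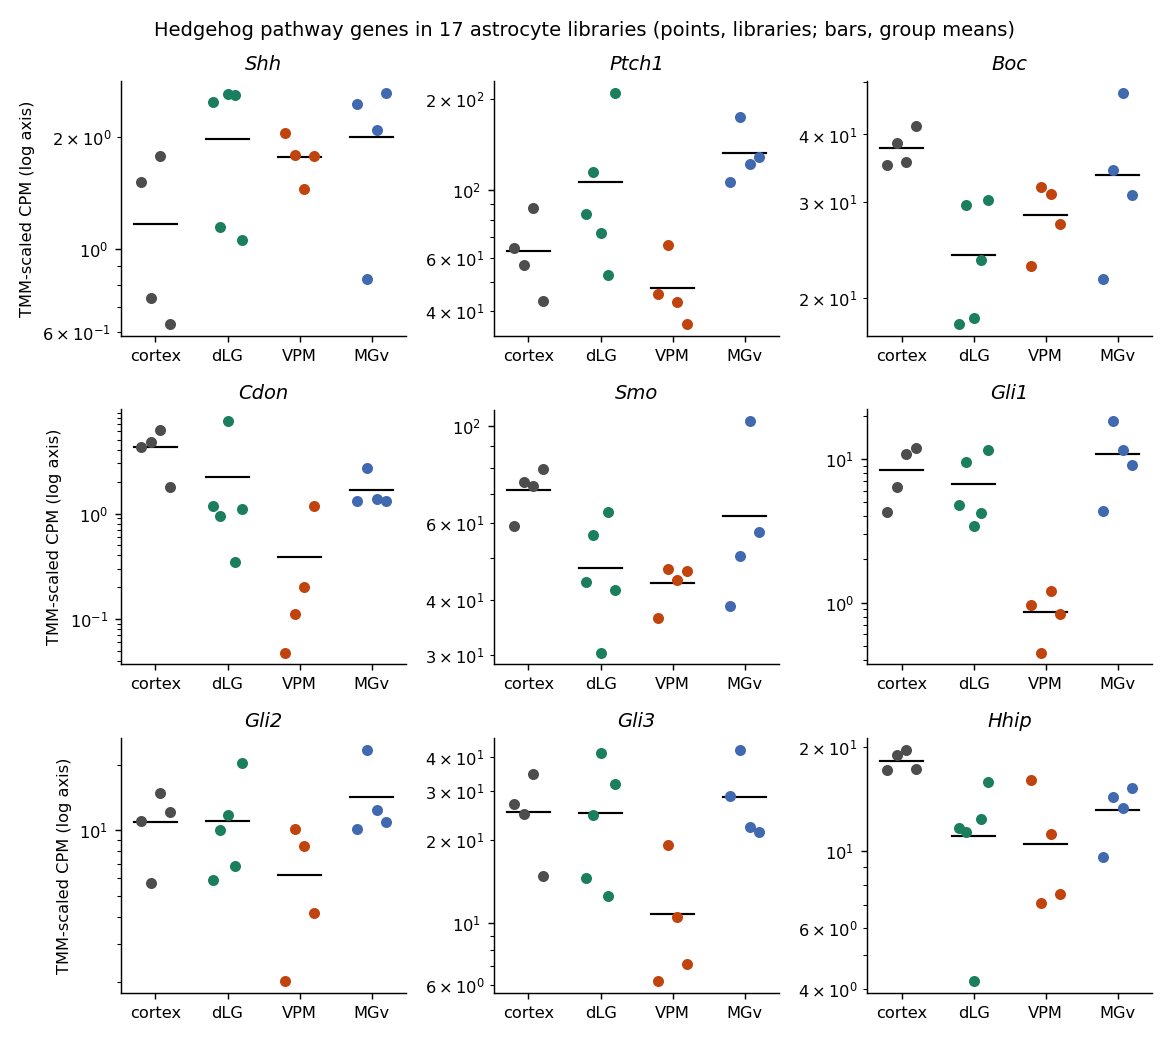
Levels of the 9 genes in TMM-scaled CPM (log axis) by group, with 1 point per library and a bar at the group mean. The 4 VPM libraries sit below all 13 others for *Gli1* (0.447 to 1.2 CPM).

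Promoter sequences of a pair of target genes are shown for contrast, since *Ptch1* differed between the nuclei and *Hhip* did not pass the test there. Each run is the 250 bases before the transcription start annotated by RefSeq, 5′ to 3′ on the gene's strand (minus for both), in build GRCm38.p6. The *Ptch1* run, at chr13:63565736-63565985, lies within the annotated span of the gene, upstream of 1 of its start sites, and the *Hhip* run lies at chr8:80058009-80058258. Capitals mark the 6-base core CCACCC of the Gli binding consensus GACCACCCA (other strand GGGTGG and TGGGTGGTC).

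Ptch1: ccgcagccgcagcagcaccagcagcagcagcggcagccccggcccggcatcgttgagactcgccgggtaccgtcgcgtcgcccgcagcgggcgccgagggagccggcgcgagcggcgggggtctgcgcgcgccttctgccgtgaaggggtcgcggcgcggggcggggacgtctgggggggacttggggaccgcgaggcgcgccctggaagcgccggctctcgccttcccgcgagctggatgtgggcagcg

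Hhip: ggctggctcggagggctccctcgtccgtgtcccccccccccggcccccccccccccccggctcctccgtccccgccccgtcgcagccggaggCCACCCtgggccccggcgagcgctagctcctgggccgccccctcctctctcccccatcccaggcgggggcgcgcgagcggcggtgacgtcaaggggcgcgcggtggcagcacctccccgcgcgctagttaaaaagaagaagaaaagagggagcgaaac

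The core occurred 1 time in the *Hhip* run and 0 times in the *Ptch1* run, and GC content was 76% and 78.4%, respectively. Promoter windows of 300 bases, which add the 50 bases after the start, were given for 6 of the 9 genes (*Ptch1*, *Smo*, *Gli2*, *Gli3*, *Hhip*, and *Cdon*). The full consensus was in 0 of these 6 windows and the core in 4, while among all 32851 windows 0.253% held the consensus and 31.5% the core. Such matches describe letters only and bear on no site.

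*Shh*, on chromosome 5 from 28456815 to 28467256 (minus strand), encodes the ligand and was detected in all 17 libraries at a low level. It was at 1.51, 0.738, 1.78, and 0.628 CPM in cortex replicates a to d, which correspond to 70, 15, 36, and 13 counts. In the dLG it was at 2.48, 1.15, 2.60, 2.59, and 1.06 CPM, in the VPM at 2.05, 1.79, 1.45, and 1.77 CPM, and in the MGv at 2.46, 0.83, 2.09, and 2.63 CPM. The 4 groups overlapped, and the VPM, where *Gli1* was lowest, lay within the range of the others. Group means were 1.17 ± 0.57 CPM in the cortex (SD, n = 4), 1.98 ± 0.798 in the dLG (SD, n = 5), 1.77 ± 0.247 in the VPM (SD, n = 4), and 2.00 ± 0.813 in the MGv (SD, n = 4). Thalamus over cortex gave a log2FC of 0.71 (95% interval -0.12 to 1.55, adjusted p = 0.326, edgeR), and the 95% interval was -0.82 to 1.14 for dLG over VPM and -1.22 to 0.86 for VPM over MGv. Other genes on the opposite strand (*9530036O11Rik* and *Gm26894*) overlap 28.3% of the exonic length of *Shh*. The library kits do not mark strand, so which gene these reads came from is not known.

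*Ptch1*, on chromosome 13 from 63508328 to 63573598 (minus strand), encodes the main receptor and is also a target that feeds back on the signal. It was at 45.6, 66.1, 43.0, and 36.2 CPM in VPM replicates a to d and at 107, 173, 122, and 128 CPM in the MGv. The dLG was spread wider, at 83.4, 115, 72.2, 52.8, and 209 CPM, and the cortex was at 64.7, 56.8, 87.2, and 43.2 CPM. All 4 MGv libraries thus lay above all VPM and cortical libraries, while dLG replicate d overlapped with the VPM. VPM over MGv had a log2FC of -1.48 (SE 0.33, adjusted p = 0.0116) and dLG over VPM one of 1.16 (SE 0.32, adjusted p = 0.034), both from edgeR. Within the largest library series, dLG over VPM was 1.36 and not called (adjusted p = 0.111, edgeR). In the smaller series it was 1.28 (adjusted p = 0.735, edgeR). *Ptch1* was also 2.11-fold higher in the MGv than in the cortex (log2FC 1.07, SE 0.33, adjusted p = 0.0428, edgeR), a call that was lost without cortex replicate b (adjusted p = 0.117), cortex replicate d (0.116), or MGv replicate b (0.118). In order of level, the MGv, the dLG, the cortex, and the VPM were at 133 ± 28.6, 107 ± 61.7, 63.0 ± 18.4, and 47.7 ± 12.9 CPM (SD), and none of the 3 pairs of neighbors in this order was called.

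*Ptch1* has 14.2 kb of exonic sequence, and long genes as a class moved with it between these groups. Among 1316 genes with over 10 kb of exonic sequence and a mean of at least 5 CPM, the median log2FC was -0.23 for VPM over MGv, 0.22 for dLG over VPM, and 0.26 for MGv over cortex. Of these long genes, 22.3% were called lower in the VPM than in the MGv, 23.2% higher in the dLG than in the VPM, and 25.2% higher in the MGv than in the cortex. The part of transcript length in the *Ptch1* differences was not tested. *Gli1*, at 4.995 kb, is in the class of 3 to 5 kb, where the median log2FC of VPM over MGv over 3333 genes was 0.12 and 6.36% of the genes were called lower in the VPM.

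*Boc* and *Cdon* encode related co-receptors that bind the ligand together with Patched. *Boc*, on chromosome 16 from 44485049 to 44558897 (minus strand), was at 35.2, 38.6, 35.7, and 41.4 CPM in the cortex and at 17.9, 29.7, 18.4, 23.5, and 30.3 CPM in the dLG. Those 2 groups did not overlap, with a log2FC of -0.65 for dLG over cortex (SE 0.21, adjusted p = 0.0437, edgeR). Without cortex replicate b or cortex replicate d the adjusted p was 0.1 or 0.146. The VPM ranged from 22.9 to 32 CPM and the MGv from 21.7 to 47.8 CPM, and neither was called against any other group. MGv replicate c held the highest *Boc* and the highest *Smo* level of all libraries. That library also had the highest sum of astrocyte markers, a sum that includes *Gfap*, which varied widely among the MGv libraries (given below). The part of this sum in the levels was not tested.

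*Cdon*, on chromosome 9 from 35421128 to 35507652 (plus strand), was uneven among replicates. It was at 4.26, 4.77, 6.14, and 1.79 CPM in the cortex and at 0.0478, 0.112, 0.200, and 1.18 CPM in the VPM, where replicates a to d had 1, 2, 4, and 24 counts. These groups did not overlap, with a log2FC of -3.43 for VPM over cortex (SE 0.93, adjusted p = 0.0285, edgeR). Without VPM replicate d the log2FC was -5.09, still called, and within the largest library series -2.52 (adjusted p = 0.15). In the dLG, replicate c stood at 7.52 CPM and the other 4 between 0.348 and 1.17 CPM, and the MGv was at 1.30, 2.69, 1.38, and 1.31 CPM. The call of dLG over VPM (log2FC 2.50, SE 0.88, adjusted p = 0.088, edgeR) rested on that library, since without dLG replicate c the log2FC was 1.2 (adjusted p = 0.328), and without VPM replicate d it was 4.19, still called. It was likewise lost without cortex replicate a or b, MGv replicate d, or VPM replicate a, b, or c, with adjusted p between 0.104 and 0.212. VPM over MGv had a log2FC of -2.09 and did not pass the threshold (adjusted p = 0.15, edgeR), although the libraries did not overlap.

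*Smo*, on chromosome 6 from 29735503 to 29761365 (plus strand), encodes the membrane protein that carries the signal inward. It was at 59.0, 74.5, 72.8, and 79.7 CPM in the cortex and at 36.4, 47.1, 44.5, and 46.6 CPM in the VPM. These libraries did not overlap, but VPM over cortex missed the threshold, with a log2FC of -0.71 (SE 0.25, adjusted p = 0.107, edgeR). It passed in 9 of 26 alternatives, among them DESeq2 (adjusted p = 0.0604) and edgeR with only the compared groups (0.00254). The dLG was at 43.9, 56.3, 30.3, 63.4, and 42.3 CPM and was called against the cortex (log2FC -0.60, SE 0.23, adjusted p = 0.099, edgeR), although dLG replicate d overlapped with cortex replicate a. That call was at the threshold and was lost on leaving out any of 13 of the 17 libraries. It held in 6 of 26 alternatives. The MGv ranged from 38.8 to 103 CPM. Between the nuclei *Smo* was not called, with 95% intervals of the log2FC of -0.38 to 0.61 for dLG over VPM and -1.03 to 0.0067 for VPM over MGv. Without MGv replicate a, *Smo* was called for VPM over MGv (log2FC -0.74, adjusted p = 0.074, edgeR).

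*Gli1*, on chromosome 10 from 127329882 to 127341974 (minus strand), encodes the Gli factor whose own transcription depends on the signal. In VPM replicates a to d it was at 0.956, 0.447, 1.2, and 0.838 CPM, from 20, 8, 24, and 17 counts. In the dLG it was at 4.78, 9.56, 3.40, 4.23, and 11.6 CPM, in the MGv at 4.38, 18.5, 11.7, and 9.16 CPM, and in the cortex at 4.30, 6.39, 10.8, and 11.9 CPM. The 4 VPM libraries were lowest of all 17, and the lowest of the others was dLG replicate c. The log2FC was -3.65 for VPM over MGv (SE 0.52, adjusted p = 0.000467), 2.95 for dLG over VPM (SE 0.50, adjusted p = 0.00296), and -3.26 for VPM over cortex (SE 0.52, adjusted p = 0.000368), all from edgeR. None of these calls was lost on leaving out a library. Cortex, dLG, and MGv overlapped, and the log2FC between them, 0.39 for MGv over cortex, -0.31 for dLG over cortex, and -0.70 for dLG over MGv, did not pass the threshold (adjusted p = 0.651, 0.69, and 0.941, edgeR).

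The *Gli1* difference was of like size in both library series that hold several groups. In the largest series, dLG over VPM gave 2.84 (adjusted p = 0.0894), VPM over MGv -3.45 (adjusted p = 0.0116), and VPM over cortex -3.49 (adjusted p = 0.00929). In the other, with 2 libraries per group and no MGv library, dLG over VPM gave 3.52 (adjusted p = 0.37) and VPM over cortex -2.91 (adjusted p = 0.15), neither past the threshold. Of the exonic length of *Gli1*, 6.55% is overlapped by *Arhgap9* and *Gm47200* on the opposite strand. In order of level, the MGv, the cortex, the dLG, and the VPM were at 10.9 ± 5.86, 8.35 ± 3.61, 6.72 ± 3.64, and 0.861 ± 0.315 CPM (SD, n = 4, 4, 5, and 4), and only the last neighbors in this order differed beyond their spread.

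*Gli3*, on chromosome 13 from 15463235 to 15730026 (plus strand), encodes the factor best known as the repressor form. It was at 6.16, 19.1, 10.6, and 7.15 CPM in the VPM and at 28.8, 42.5, 22.3, and 21.3 CPM in the MGv, with no overlap. The dLG, at 14.6, 24.6, 41.5, 12.5, and 32 CPM, and the cortex, at 26.9, 24.8, 34.7, and 14.8 CPM, both overlapped with VPM replicate b. *Gli3* was called lower in the VPM than in the MGv (log2FC -1.42, SE 0.40, adjusted p = 0.034), the dLG (1.22 for dLG over VPM, SE 0.38, adjusted p = 0.0581), and the cortex (-1.24, SE 0.40, adjusted p = 0.0697), all from edgeR. The call against the MGv was lost without MGv replicate b or VPM replicate a (adjusted p = 0.103 and 0.102). That against the dLG was lost without dLG replicate c or e or VPM replicate a, c, or d, and that against the cortex without cortex replicate a, b, or c or VPM replicate a, c, or d, with adjusted p between 0.104 and 0.22. For dLG over VPM it was also lost with library series as a covariate (adjusted p = 0.141) and with only the compared groups (0.111), both from edgeR. Within the largest series, dLG over VPM was 1.18 (adjusted p = 0.277), and within the smaller one 0.856 (0.781), both from edgeR. VPM over cortex was -1.03 in the smaller series (adjusted p = 0.837, edgeR). With 9.59 kb of exonic sequence, *Gli3* belongs to a length class in which 15.2% of 1808 genes were called lower in the VPM than in the MGv.

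*Gli2*, on chromosome 1 from 118834132 to 119053619 (minus strand), encodes the main activator upstream of *Gli1* and was not called in any comparison in the main edgeR fits. It was at 2.01, 10.1, 8.51, and 4.14 CPM in the VPM and at 10.2, 23.6, 12.5, and 10.9 CPM in the MGv, where the lowest library lay just above the highest of the VPM. The log2FC of VPM over MGv was -1.21 (SE 0.46, adjusted p = 0.108, edgeR), close to the threshold. *Gli2* was called there by DESeq2 (log2FC -1.25, adjusted p = 0.0483), whereas without MGv replicate b edgeR gave -0.90 (adjusted p = 0.312). Other edgeR fits did call it, with the replicate block (adjusted p = 0.0385) and with only the compared groups (0.0877). So did those without dLG replicate c, d, or e, MGv replicate a, or VPM replicate b (adjusted p between 0.0673 and 0.0985, edgeR). In the dLG *Gli2* was between 5.90 and 20.4 CPM and in the cortex between 5.71 and 14.9 CPM, so that both overlapped with the VPM. The 95% interval of the log2FC was -0.10 to 1.76 for dLG over VPM and -1.79 to 0.14 for VPM over cortex.

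*Hhip*, on chromosome 8 from 79965851 to 80058006 (minus strand), encodes a membrane protein that binds and sequesters the ligand, and is itself a target. The cortex was narrow, at 17.2, 18.9, 19.6, and 17.2 CPM, and the 13 thalamic libraries ranged from 4.21 CPM (dLG replicate c) to 16.1 CPM (VPM replicate a). Every cortical library thus lay above every thalamic one, yet thalamus over cortex missed the threshold, with a log2FC of -0.66 (SE 0.24, 95% interval -1.17 to -0.15, adjusted p = 0.112, edgeR). Summed meningeal and perivascular fibroblast markers were also higher in the cortex (56.6 to 69.1 CPM, against 17.6 to 46.6 in the thalamus). Endothelial and mural markers summed to 37.3 to 64.7 CPM in the cortex and 2.36 to 60.9 in the thalamus. Ependymal and choroid plexus markers summed to 3.00 to 68.5 and 0.284 to 10.7 CPM. The part of such cells in the genes higher in the cortex was not tested. The VPM was at 16.1, 7.09, 11.2, and 7.49 CPM, the dLG at 11.6, 11.3, 4.21, 12.4, and 15.9 CPM, and the MGv at 9.58, 14.4, 13.3, and 15.2 CPM, all overlapping. Between the nuclei the largest log2FC was -0.32 for VPM over MGv (95% interval -0.98 to 0.34, adjusted p = 0.57, edgeR). The *Hhip* intervals for dLG over VPM, -0.55 to 0.71, and for VPM over MGv did not reach the size of the *Gli1* differences in the same comparisons.

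**Figure D2:**
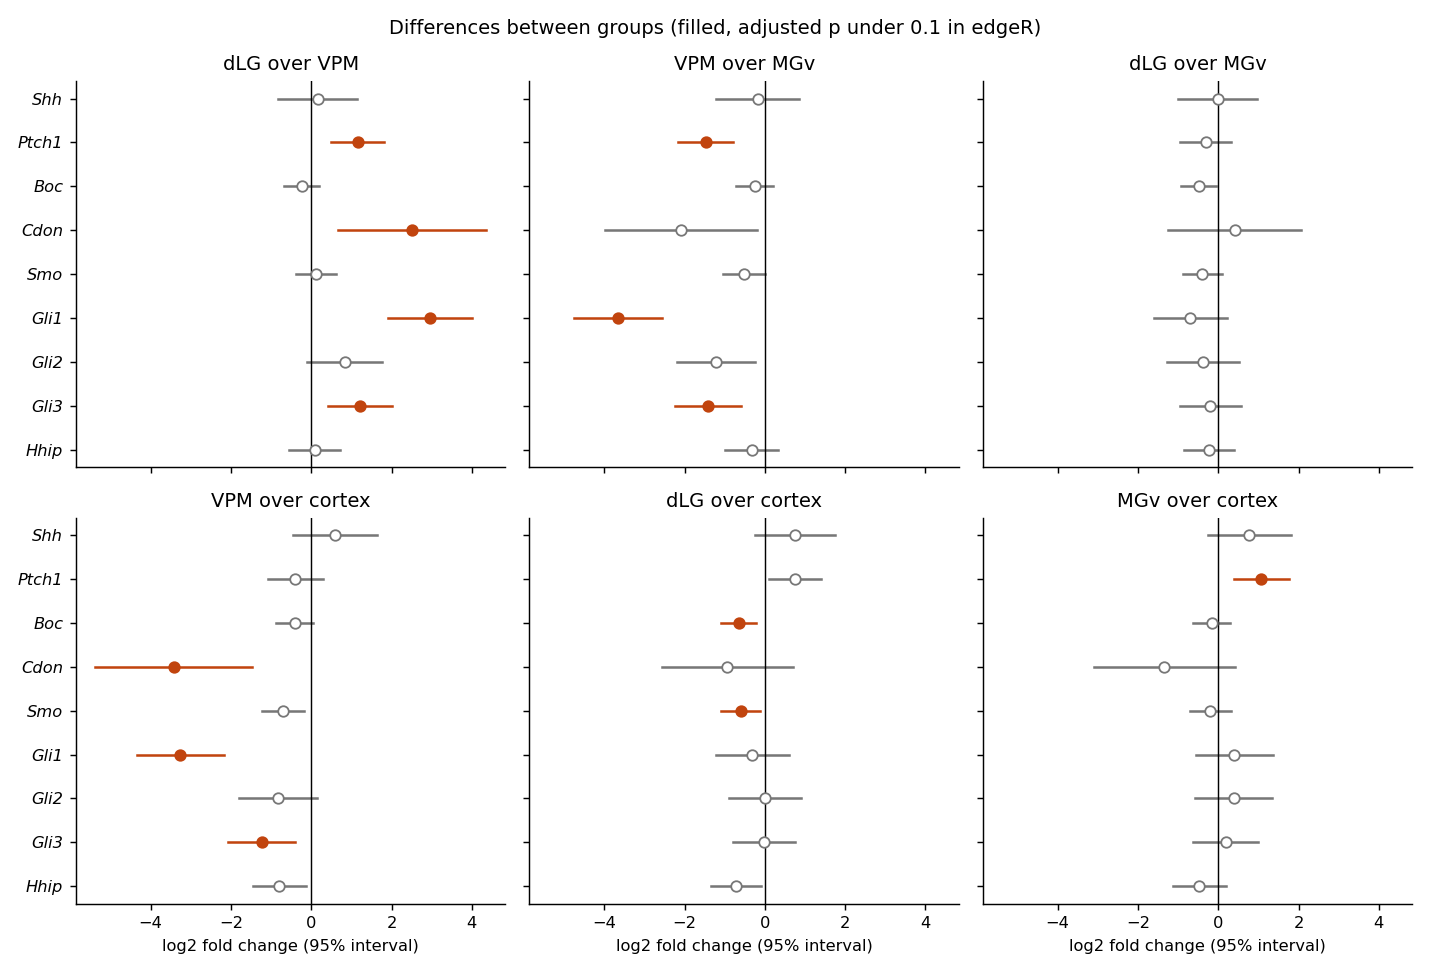
Log2FC with 95% intervals of the 9 genes in the 6 comparisons between groups, filled where the adjusted p was under 0.1 in edgeR. In the comparisons that involve the VPM, *Gli1* lies at 2.95 (dLG over VPM), -3.65 (VPM over MGv), and -3.26 (VPM over cortex), while *Shh*, *Boc*, *Smo*, and *Hhip* are open symbols, none past -0.80.

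Counted over the 9 genes, 0 were called between thalamus and cortex (edgeR), where 11.4% of all genes tested were called. At an unadjusted p under 0.05 there were 3 (*Smo*, *Hhip*, and *Boc*, each with a negative log2FC), and DESeq2 called 1, *Hhip*. Without dLG replicate c or MGv replicate c edgeR called 2, and without VPM replicate a 1. Of the 9, 2 had a positive log2FC (*Shh* and *Ptch1*) and the median was -0.41, beside a median of 0.02 over all genes. Only *Hhip* had libraries that did not overlap, against 3.1% of all genes that lay higher in the cortex without overlap. Taking the thalamus as the mean of its 3 nuclei in the fit of 4 groups gave 3 calls, all negative: *Gli1* (log2FC -1.06, adjusted p = 0.0616), *Hhip*, and *Cdon*.

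Between the nuclei, 4 of the 9 were called for dLG over VPM, each higher in the dLG (*Gli1*, *Ptch1*, *Gli3*, and *Cdon*). Of all genes, 13.7% were called in that comparison and 7.93% were higher in the dLG. Among genes with a mean of at least 5 CPM, that last share was larger for long ones. It was 23.2% at over 10 kb of exonic sequence, the class of *Ptch1*, and 15.9% at 7 to 10 kb, that of *Gli3*. Without dLG replicate c, VPM replicate a, or VPM replicate c, the count was 2. Libraries did not overlap for *Gli1* alone, against 4.77% of all genes higher in the dLG without overlap. For VPM over MGv, 3 were called, each lower in the VPM (*Gli1*, *Ptch1*, and *Gli3*), where 15.4% of all genes were called and 7.97% were higher in the MGv. Here 5 did not overlap (*Ptch1*, *Gli1*, *Gli2*, *Gli3*, and *Cdon*), against 9.13% of all genes higher in the MGv without overlap, and all 9 had a negative log2FC, with a median of -1.21 beside -0.0086 over all genes. Without dLG replicate c or without MGv replicate a, the count was 5. For dLG over MGv, edgeR and DESeq2 each called 0 of the 9, where edgeR called 1.02% of all genes, and 1 (*Boc*) had an unadjusted p under 0.05.

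The 3 comparisons with the cortex share the cortical libraries, so their values are given side by side and are not independent. VPM over cortex had 3 calls, each lower in the VPM (*Gli1*, *Cdon*, and *Gli3*), with 9% of all genes called and 5.44% higher in the cortex. Libraries did not overlap for 5 (*Smo*, *Gli1*, *Hhip*, *Boc*, and *Cdon*), against 9.32% of all genes higher in the cortex without overlap, and without dLG replicate c the count of calls was 5. For dLG over cortex, 2 were called, both lower in the dLG (*Boc* and *Smo*) and both lost without cortex replicate b or d, with 19.4% of all genes called and 9.04% higher in the cortex. *Hhip* and *Boc* did not overlap there, against 7.26% of all genes. MGv over cortex had 1 call, *Ptch1*, higher in the MGv, with 15.4% of all genes called and 7.87% higher in the MGv. *Ptch1* lay higher in the MGv without overlap, as did 8.68% of all genes, and *Hhip* lay higher in the cortex, as did 10.5%.

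Several cell type marker lists moved with the VPM as well. The 5 proliferation markers summed to 510 to 646 CPM in the VPM, 344 to 428 in the cortex, 399 to 545 in the dLG, and 370 to 494 in the MGv. All 5 were called higher in the VPM than in the cortex, 1 was called higher than in the MGv, and 1 higher than in the dLG, where 9%, 15.4%, and 13.7% of all genes were called in either direction. The 5 microglial markers were at 6.07 to 10.3 CPM in the VPM, 10.4 to 81.4 in the dLG, 8.40 to 48.7 in the MGv, and 10.4 to 18.2 in the cortex, and all 5 were called lower in the VPM than in the dLG and 3 lower than in the MGv. The astrocyte markers summed to 5001 to 7049 CPM in the VPM, 5976 to 7197 in the dLG, 4408 to 13080 in the MGv, and 7254 to 8068 in the cortex, with 4 of 8 called lower and 1 higher for VPM over cortex, 3 higher and 2 lower for dLG over VPM, and 2 higher and 2 lower for VPM over MGv. Among them *Gfap*, the gene whose promoter drives the sorted label, was at 8.98, 19.3, 11.8, and 9.37 CPM in the VPM. Cortical libraries held 450 to 538 CPM of *Gfap*, those of the dLG 78.3 to 1310 CPM, and those of the MGv 36.1 to 5525 CPM, so that the VPM was lowest for *Gfap*, as it was for *Gli1*. The log2FC of *Gfap* was 5.44 for dLG over VPM, -7.24 for VPM over MGv, and -5.33 for VPM over cortex (adjusted p = 0.013, 0.00314, and 0.00826, edgeR). *Sox9*, an astrocyte transcription factor gene, was at 389 ± 91 CPM in the VPM (SD, n = 4) and at 706 to 730 CPM as a mean in the other groups. It was called lower in the VPM in the same 3 comparisons. Other astrocyte markers of the 8 went the other way. Called higher in the VPM were 1 against the cortex, 2 against the dLG, and 2 against the MGv, so *Gfap* and *Sox9* do not stand for the list. The oligodendrocyte lineage markers summed to 6924 to 11120 CPM in the VPM and 6126 to 8911 in the other groups. Of these 7, 1 was called higher for VPM over cortex. For dLG over VPM 1 was called higher and 1 lower, and for VPM over MGv 2 higher and 2 lower. The part of these marker lists in the *Gli1* results was not tested.

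**Figure D3:**
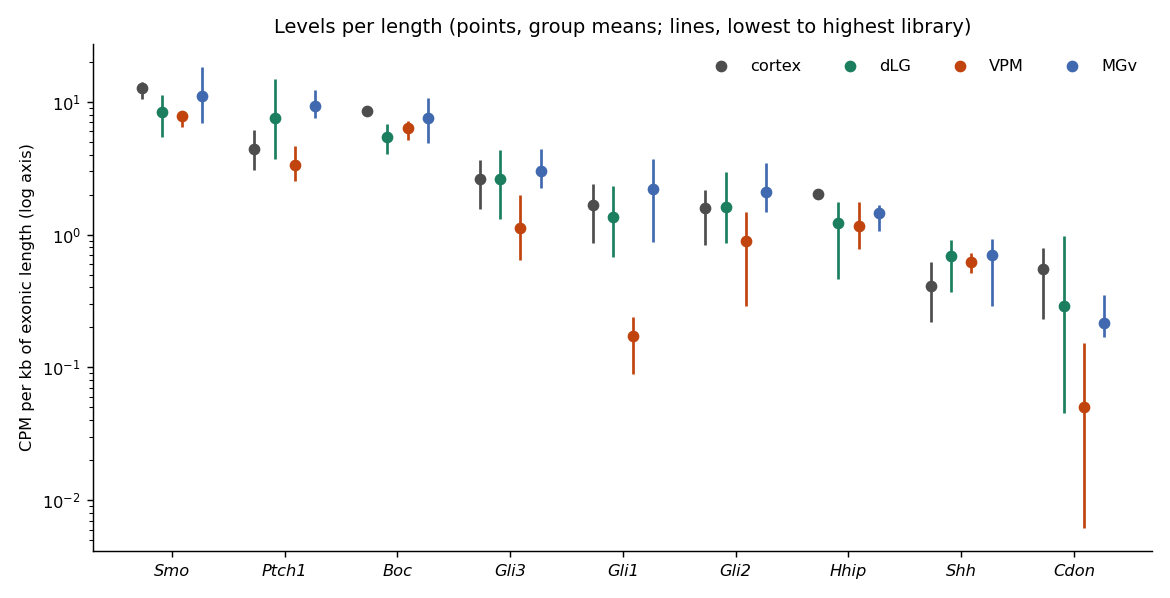
Mean CPM per kb of exonic length (log axis) of the 9 genes in each group, with lines from the lowest to the highest library. *Smo*, *Ptch1*, and *Boc* lead in every group, and the group means of *Shh* and *Cdon* lie below 1 CPM per kb.

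Divided by exonic length so that genes can be compared, *Smo* was at 7.76 to 12.7 CPM per kb as a group mean, *Boc* at 5.39 to 8.47, and *Ptch1* at 3.36 to 9.35. The means of these 3 genes were above those of the Gli factors in each group. *Gli3* was at 1.12 to 3.00 CPM per kb, *Gli2* at 0.901 to 2.08, *Hhip* at 1.15 to 2.01, and *Gli1* at 0.172 to 2.19. The ligand gene *Shh* was at 0.409 to 0.703 CPM per kb and *Cdon* at 0.05 to 0.549. In the VPM, *Gli1* fell below *Shh* on this scale (0.172 ± 0.063 against 0.621 ± 0.0866 CPM per kb, SD, n = 4), whereas in the other groups its mean lay above that of *Shh*.

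Beyond the 9, 47 genes of the pathway and of responses to it were listed, of which 46 have counts and 43 could be tested. Between thalamus and cortex 7 of the 43 were called, where 11.4% of all genes were, 2 higher and 5 lower in the thalamus, and the median log2FC was -0.04. Among the ligand release genes, *Scube2* was at 1.78 CPM in the thalamus and 0.493 in the cortex (log2FC 1.82, adjusted p = 0.0552), and *Scube1* at 5.61 and 21 CPM (log2FC -1.90, adjusted p = 0.034), both from edgeR and both genes of secreted factors that free the ligand from the membrane. *Gas1*, the further co-receptor gene, was at 71.3 CPM in the thalamus and 122 in the cortex (log2FC -0.77, SE 0.14, adjusted p = 0.00135, edgeR), without overlap of the libraries, and 19.9% of its exonic length is overlapped by *Gm48488*. *Spop*, an adaptor of a ubiquitin ligase that acts on Gli proteins, had a log2FC of -0.69 (adjusted p = 0.034, edgeR), and was the only one called among 16 transduction genes.

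Of the genes listed as targets or as responding in astrocytes, 3 of 13 tested were called between thalamus and cortex, against the same 11.4% of all genes. *Nkx2-2*, a homeobox gene of ventral neural progenitors and of the oligodendrocyte lineage, was at 140 CPM in the thalamus and 79.7 in the cortex. Its log2FC was 0.81 (SE 0.19, adjusted p = 0.00899, edgeR), without overlap of the libraries. By nucleus, the mean of *Nkx2-2* was 178 CPM in the VPM, where *Gli1* was lowest, 131 in the MGv, and 117 in the dLG. *Sfrp1*, whose product binds Wnt ligands, was 5.62-fold lower in the thalamus (log2FC -2.49, SE 0.27, adjusted p = 2.66e-06, edgeR). *Slc1a3*, a glutamate transporter gene, had a log2FC of -1.72 (adjusted p = 1.78e-09, edgeR). For both of the latter, too, every cortical library lay above every thalamic one.

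Within the thalamus, the lists gave 7 calls for dLG over VPM (4 higher and 3 lower), 9 for VPM over MGv (4 higher and 5 lower), and 6 for dLG over MGv (3 higher and 3 lower), out of 43 genes tested, where 13.7%, 15.4%, and 1.02% of all genes were called. The lowest p for dLG over VPM belonged to *Gpr161*, which encodes a ciliary receptor that restrains the signal. It was at 10.6, 11.2, 21.7, 7.12, and 16.2 CPM in the dLG and between 4.93 and 7.31 CPM in the VPM (log2FC 1.22, adjusted p = 0.0168, edgeR). In the MGv *Gpr161* was between 9.77 and 15.2 CPM, above every VPM library (log2FC -1.21 for VPM over MGv, adjusted p = 0.0167, edgeR). *Bcl2*, which encodes an inhibitor of apoptosis, was between 55.4 and 85.5 CPM in the dLG and between 27.6 and 60.8 CPM in the VPM, which overlapped (log2FC 0.81 for dLG over VPM, adjusted p = 0.0238, edgeR). *Sfrp1* was between 12.1 and 22.8 CPM in the dLG, 19.9 and 33.6 in the VPM, and 34.1 and 50.2 in the MGv, with a log2FC of -0.84 for dLG over VPM (adjusted p = 0.0179) and -1.31 for dLG over MGv (adjusted p = 0.0014), both from edgeR. *Scube1* was lower in the dLG than in the MGv (log2FC -2.46, adjusted p = 0.0133, edgeR), with 1 count in dLG replicate e.

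*Kcnj10* and *Sparc*, an inward rectifier channel gene and a matrix protein gene that were listed as responding to Shh in astrocytes, differed between the VPM and the MGv in opposite directions. *Kcnj10* was at 403, 571, 543, and 479 CPM in the VPM and at 226, 271, 248, and 272 CPM in the MGv, where *Gli1* was highest (log2FC 0.97 for VPM over MGv, adjusted p = 0.00437, edgeR). *Sparc* was at 473, 703, 524, and 549 CPM in the VPM and at 996, 1111, 896, and 814 CPM in the MGv (log2FC -0.76, adjusted p = 0.0121, edgeR). For neither gene did the VPM and the MGv overlap.

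**Figure D4:**
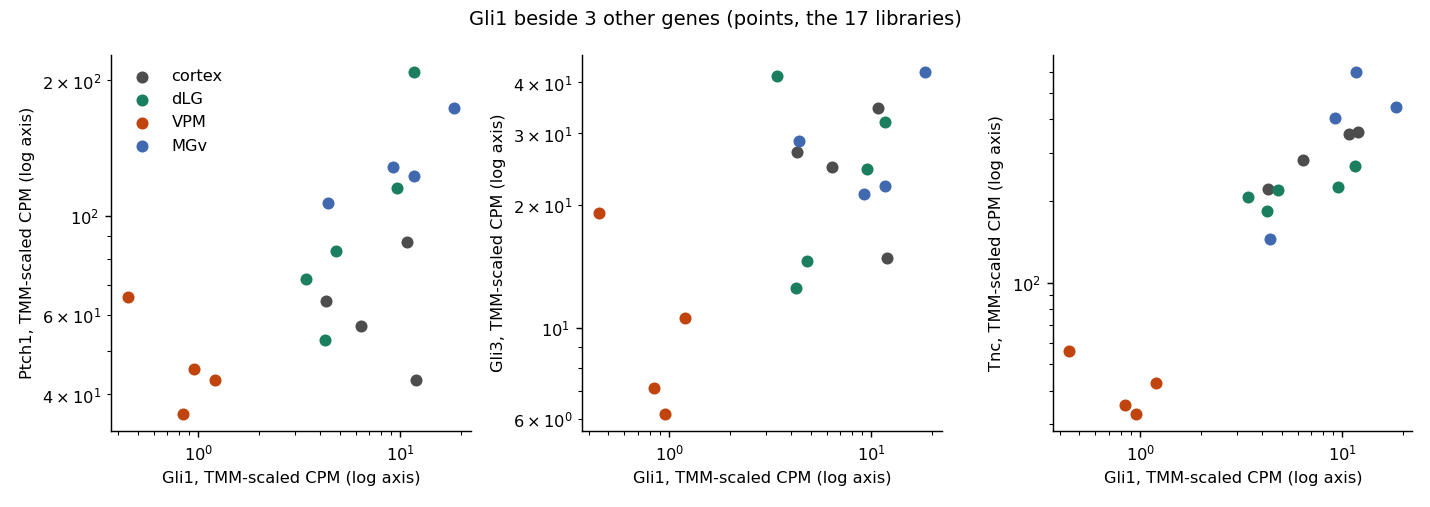
*Ptch1*, *Gli3*, and *Tnc* against *Gli1*, in TMM-scaled CPM on log axes, with 1 point for each of the 17 libraries, colored by group. The VPM libraries (at most 1.2 CPM of *Gli1*) stand apart in the level of *Tnc*. That gene was picked for its likeness to *Gli1*, so its low level there follows from the choice. *Ptch1* and *Gli3* were chosen by symbol, and for both the VPM overlaps with the dLG and the cortex. Because of this difference in choice, the panels cannot be compared as like with like.

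Across the 17 libraries, the 5 genes whose log2 level (pseudocount of 0.5 CPM) was most like that of *Gli1* were *Mpp2* (r = 0.936), *Tnc* (0.935), *Pxdn* (0.926), *Iqgap1* (0.920), and *Rhcg* (0.912), out of 17856 genes. The libraries differ in group and share depth and composition, so these values describe likeness only. *Tnc*, which encodes the matrix glycoprotein tenascin C, was at 32.8, 55.8, 42.7, and 35.5 CPM in the VPM and at 145, 444, 599, and 405 CPM in the MGv. It was between 183 and 269 CPM in the dLG and between 221 and 358 CPM in the cortex, so that the 4 VPM libraries were again lowest. VPM over MGv had a log2FC of -3.26 (SE 0.31, adjusted p = 7.05e-06, edgeR), though a gene picked for its likeness to *Gli1* had to be low there. Among the other 8 genes of the pathway, the correlation with *Gli1* was 0.675 for *Ptch1*, 0.670 for *Gli2*, and 0.645 for *Gli3*. These ranked 412, 436, and 555 among the genes tested, from the highest. The correlation was 0.524 for *Cdon*, 0.517 for *Hhip*, 0.506 for *Smo*, 0.392 for *Boc*, and -0.366 for *Shh*.

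For *Ptch1*, the most alike were *Foxo3* (r = 0.954), *Rfx3* (0.950), *Sesn3* (0.937), *Iffo2* (0.934), and *Lama1* (0.924), none of which was among the 5 named for *Gli1*. *Lama1*, a laminin chain gene, was at 1.15, 1.17, 0.901, and 0.887 CPM in the VPM and at 5.30, 7.00, 4.70, and 4.35 CPM in the MGv. *Foxo3*, which encodes a forkhead transcription factor, was highest in dLG replicate e at 26.4 CPM, the library that was also highest for *Ptch1*. Both genes were picked for their likeness to *Ptch1*, so a shared order of groups and libraries follows from that choice.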

How the data were processed

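GFP-labeled cells of 4 pooled brains per library were dissociated and purified by cell sorting, and RNA was amplified with a kit that does not mark strand, so that reads of a gene and of one on the opposite strand cannot be told apart. Per the submitters' processing notes, FastQC 0.11.7, STAR 2.7.0d, SAMtools 1.9, and featureCounts from Subread 1.6.4 were used with build mm10. The authors deposited raw read counts per gene for each of the 17 libraries, and these counts were used as deposited. Groups were taken from the sample labels, and gene positions from GENCODE annotation of GRCm38.

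Differences were tested with edgeR 4.0.16 (R 4.3.3; TMM scaling, filterByExpr, quasi-likelihood test), with thalamus against cortex in a fit of 2 groups and the other comparisons in a fit of 4 groups. Benjamini-Hochberg adjustment covered all 17856 genes tested, and adjusted p under 0.1 was the threshold, as in the study's methods. The fits were tested on simulated data. DESeq2 1.42.0, other scaling, no filter, a threshold of 0.05, a replicate block, library series, fewer libraries, and leaving out each library were tried as alternatives, and the subsets by library series were added after the data were seen. The members and lists were chosen with earlier results of these data known. Named were all 9 genes, other pathway genes past the threshold (up to 12 by p for thalamus against cortex, up to 3 per pair of nuclei), and the 5 genes most correlated with *Gli1* and with *Ptch1*. Gene position and length came from the annotation, and promoter sequences from RefSeq. One gene of the pathway list is not reported here and was left out of the list's counts.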

Additional observations from a re-analysis of the deposited data

Results flagged for a closer look

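Single libraries lay far from the others of their group in 7 of 120 gene and group combinations over 30 genes (Dixon's test at the 95% level), where chance gives about 1 in 20. *Cdon* was at 7.52 CPM in dLG replicate c, 2.69 CPM in MGv replicate b, and 1.18 CPM in VPM replicate d. MGv replicate b was high for *Gli2* (23.6 CPM) and *Sfrp1* (50.2 CPM). *Gpr161* was at 10.2 CPM in cortex replicate d, and *Rhcg* at 3.97 CPM in VPM replicate a.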

How the results depend on the processing

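Of 1611 gene values recomputed under the alternatives, 1446 kept their direction and side of the threshold, 67 lost the call, 49 gained it, and 49 changed sign, none of them called under that alternative. *Gli1* kept its calls against the VPM under every alternative except the smaller library series (dLG over VPM 3.52, adjusted p = 0.37; VPM over cortex -2.91, adjusted p = 0.15). Of the 9 genes, DESeq2 called 1 for thalamus against cortex, 5 for VPM against MGv, and 5 for VPM against cortex. DESeq2's size factors, no filter, and a threshold of 0.05 each left 1 for dLG against cortex, and the last also left 2 for dLG against VPM. Library series as a covariate gave 2 for thalamus against cortex, 2 for dLG against VPM, 1 for dLG against cortex, and 5 for VPM against cortex. The mean of the nuclei gave 3 against cortex and 10 pathway genes. Fits of only the compared groups gave 2 for dLG against VPM, 5 for VPM against MGv, 6 for VPM against cortex, and 2 for MGv against cortex. The largest library series gave 1 for dLG against VPM and 0 for dLG against cortex, and the smaller one 0, 0, and, for VPM against cortex, 1, with 2 pathway genes. Leaving out 1 library gave 0 to 2 for thalamus against cortex (4 to 9 pathway genes), 2 to 4 for dLG against VPM, 2 to 5 for VPM against MGv, 0 to 3 for dLG against cortex, 2 to 5 for VPM against cortex, and 0 to 1 for MGv against cortex. The cause of these changes was not tested.

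The 24 same-letter pairs of libraries had a median correlation of 0.164 (-0.361 to 0.495), beside -0.0504 for 84 pairs of other letters. Of the 24, 13 were over 0.1, and 4 of 17 libraries correlated best with their own letter. These values do not settle whether letters share brains. Since no source states it, the letters were not treated as pairs in the main fits. The replicate block gave 3 calls for dLG against VPM and 4 for VPM against MGv, the latter with *Gli2* (-1.31, adjusted p = 0.0385). Values that changed sign under the replicate block were *Hhip* dLG over VPM (-0.0982), *Shh* dLG over MGv (0.159), and *Gli2* dLG over cortex (-0.462).

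Other sign changes of log2FC were *Gli3* dLG over cortex (0.0202 with DESeq2, 0.0174 with its size factors, 0.0134 without the filter, 0.0183 with only the compared groups). With series as a covariate they were *Cdon* dLG over MGv (-0.523) and *Gli2* dLG over cortex (-0.0204). In the largest series they were *Cdon* dLG over MGv (-0.645), *Gli2* dLG over cortex (-0.749), and *Gli1* MGv over cortex (-0.0427). In the smaller series they were *Gli2* thalamus over cortex (0.268), *Shh* (-0.0417) and *Boc* (0.00963) dLG over VPM, and *Gli1* dLG over cortex (0.611). Leaving out 1 library, log2FC spanned 0 for thalamus over cortex in *Gli2* (-0.272 to 0.151) and *Gli3* (-0.369 to 0.00529), for dLG over VPM in *Hhip* (-0.0657 to 0.41) and *Smo* (-0.0147 to 0.238), and for dLG over MGv in *Cdon* (-0.892 to 0.729), *Gli3* (-0.457 to 0.0457), and *Shh* (-0.28 to 0.137). It did so for dLG over cortex in *Gli2* (-0.314 to 0.22) and *Gli3* (-0.277 to 0.21), and for MGv over cortex in *Boc* (-0.351 to 0.0379), *Gli3* (-0.0292 to 0.412), and *Smo* (-0.525 to 0.00933). Over all genes, DESeq2 called 412 for dLG against MGv, where edgeR called 183.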

Other observations

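*Nkx2-1*, a homeobox gene and Shh target of the ventral forebrain, was singled out after its values were seen. It had 0 counts in all 4 MGv libraries. In the cortex *Nkx2-1* was at 3.00, 2.61, 1.24, and 1.79 CPM, in the dLG at 0, 0.860, 2.79, 0.946, and 1.36 CPM, and in the VPM at 0.287, 0.0558, 0.751, and 0.838 CPM. Since 3 counts correspond to between 0.0596 and 0.165 CPM, the VPM levels of *Nkx2-1* rest on few reads.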
